A study of Mus musculus with 12 samples.

Results

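The replication licensing factors examined here are 10 mouse genes, Mcm2, Mcm3, Mcm4, Mcm5, Mcm6, Mcm7, Mcm10, Cdc6, Cdt1 and Cdc45, out of 19259 named genes with a probe on the array. They were chosen by gene name, and every probe whose RefSeq accession maps to one of them was used, which gave 12 of 37246 probes (2 each for Cdc6 and Cdc45). Liver RNA came from male C57BL/6 mice, 6 weeks old, at 0, 1.5, 12 and 24 h after a 2/3 partial hepatectomy, the surgical removal of most of the liver. The labels give 3 mice per time point, and each of the 12 arrays was taken as 1 mouse. The array was a 1-colour Agilent design with probes for messenger RNAs and long noncoding RNAs. The labels name no sham operation and no hour of collection, so time since surgery, the operation itself and time of day cannot be told apart. Whole tissue was measured, so fewer cells of a type and less RNA per cell cannot be told apart either.

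Licensing marks a replication origin for use once per cell cycle. The origin recognition complex, Cdc6 and Cdt1 load the ring-shaped helicase of Mcm2 to Mcm7 onto DNA in G1, and geminin (Gmnn) blocks Cdt1 after S phase has begun. Cdc45 and the GINS complex then turn the loaded ring into an active helicase, and Mcm10 takes part in that step. Most hepatocytes of an adult liver are quiescent, and many re-enter the cell cycle after a hepatectomy, with DNA synthesis in the mouse peaking after the first day.

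Levels below are log2 of the processed signal minus the 75th percentile of that array, so 0 marks a signal equal to that percentile. The level of a probe is comparable across arrays but not with that of another probe. Fold changes come from limma on all 12 arrays, with errors (±) as standard errors and p-values adjusted over the 31168 probes tested, and a probe is called where that adjusted p is below 0.05. The labels do not say whether the mice of a time point were operated on or housed separately, so p-values measure only the spread between these samples. The 75th percentile of the signal was 428 to 584 on 11 arrays and 6020 on 24 h replicate 2, which correlated at 0.906 and 0.912 with the other 24 h arrays, against 0.986 between those. Fold changes at 24 h are therefore given with and without it, and so are counts at 12 h where its removal moves them, since its spread enters the error of every comparison. Shared scan times in the file headers put the arrays on 4 slides, with all 0 h arrays and 1.5 h replicate 1 on slide 1, the other 1.5 h arrays and 12 h replicates 1 and 2 on slide 2, 12 h replicate 3 and 24 h replicates 1 and 3 on slide 3, and 24 h replicate 2 on slide 4. No slide holds both 0 h and 12 h or both 0 h and 24 h. The share of spots well above background was 82 to 85.4% on the arrays of slide 2 and 62.8 to 72.4% on the others, so detection differed by slide. All 8 hepatocyte markers were above background on at least 11 arrays, Alb (albumin) on all 12.

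9 probes of 8 members were well above background on all 12 arrays. The Mcm5 probe passed on 2 of 12 arrays and both Cdc6 probes on 0 of 12, so these 3 were not tested. Mcm10, Mcm6, Cdt1 and Mcm3 were lower at 12 h than at 0 h, and the Mcm10 probe was the most changed of the 9, by 16.2-fold. Mcm10, Mcm6 and Cdt1 were higher again at 24 h than at 12 h. At 24 h Mcm10 was still below its 0 h level, and no member passed the test above its 0 h level at any time. When arrays were weighted by quality Mcm4 and 1 Cdc45 probe did at 12 h, and that Cdc45 probe at 1.5 h. Those weights called 18225 of 31168 probes at 12 h and 11863 at 1.5 h.

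**Figure D1:**
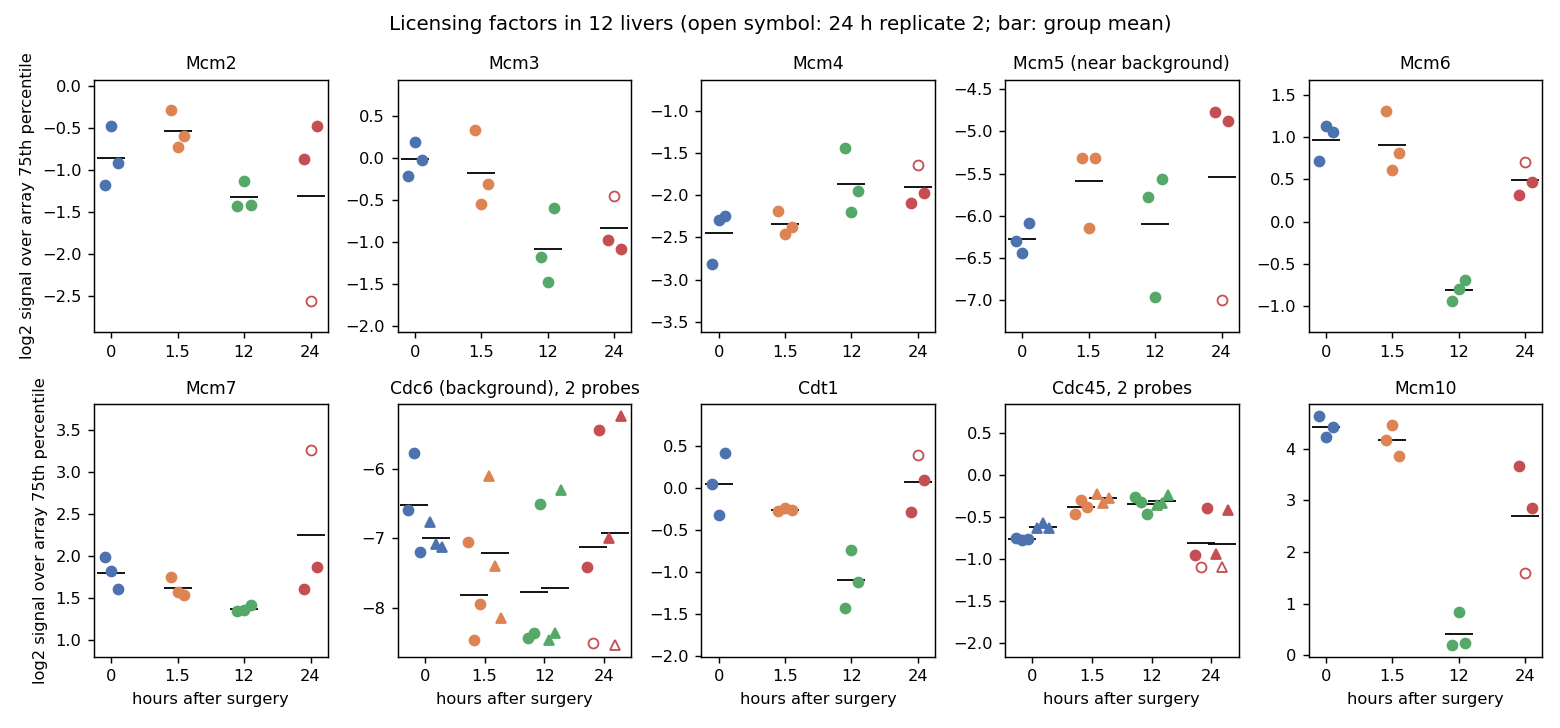
Level of every probe of the 10 licensing factors on the 12 arrays (log2 processed signal over the 75th percentile of the array) against hours after surgery, with replicates as points, 24 h replicate 2 as an open symbol, group means as bars, and circles and triangles for the 2 probes of Cdc6 and of Cdc45. Mcm10, Mcm6 and Cdt1 dip at 12 h, while Cdc45 stays between -1.10 and -0.23 on all arrays.

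E2F factors are known regulators of MCM genes, so the promoters were searched for 2 such motifs, TTCCCGC and TTGGCGC, on both strands. The windows were RefSeq sequences of GRCm38.p6, from 250 bases before to 50 after a start position listed for each gene. An entry was found for 9 members, with 10 windows in all, as Mcm7 had an extra window. For Cdc6, Mcm5 and Mcm7 the listed start lies inside the span of the gene and not at its first base. Cdc6, Cdt1, Mcm3, Mcm5, Mcm6 and Mcm7 held at least 1 motif. That is 7 of 10 windows (70.0%) against 6.81% of 32851 windows of all genes. Among the gene lists read further below, helicase activation and origin firing had a motif in 6 of 8 windows. The S phase list had it in 4 of 11, MCM relatives in 1 of 3, licensing restraint and turnover in 2 of 7, and origin recognition in 2 of 10. A high share was thus not particular to the members, and the lists were not tested against each other. The windows of Mcm2, Mcm10 and Cdc45 held neither motif. The sequences shown are those of members that passed the test at 12 h and 1 stretch of Mcm7. Each is read 5′ to 3′ on the strand of its gene, with motif letters in capitals. Offsets are those of a motif's leftmost letter from the listed start (negative before it). The Mcm7 stretch at -113 lies inside the span of the gene. The other Mcm7 window held TTCCCGC from -165 and TTGGCGC from 20, both on the other strand, and is not shown. GCGGGAA is TTCCCGC on the other strand and GCGCCAA is TTGGCGC on the other strand.
Mcm6, motif from -109, chr1:128359793-128359829, minus strand: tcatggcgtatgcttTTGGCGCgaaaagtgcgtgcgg
Mcm6, motif from -46, chr1:128359730-128359766, minus strand: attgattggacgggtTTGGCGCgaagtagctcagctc
Mcm3, motifs from 19 to 42, chr1:20820264-20820293, minus strand: GCGGGAAaacttgggaagttTTGGCGCCAA
Cdt1, motifs from 18 and 33, chr8:122568029-122568058, plus strand: atccGCGGGAActacctttTTGGCGCcatg
Mcm7, motif from -113, chr5:138171358-138171394, minus strand: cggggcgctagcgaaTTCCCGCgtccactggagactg
Mcm10, the 250 bases before the start with no match, chr2:5012792-5013041, minus strand: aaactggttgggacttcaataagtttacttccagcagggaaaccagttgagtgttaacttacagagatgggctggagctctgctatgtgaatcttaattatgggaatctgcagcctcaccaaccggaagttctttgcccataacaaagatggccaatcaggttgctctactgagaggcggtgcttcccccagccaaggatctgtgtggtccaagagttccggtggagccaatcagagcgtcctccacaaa
In Mcm3 the last 10 letters hold TTGGCGC on both strands, overlapping. The Mcm6 window held 2 copies of TTGGCGC, and the Mcm10 window held no complete copy of either motif. The last 6 letters of that window, ttggcg, are the first 6 of TTGGCGC, and the letter after them lies outside it. A match is a run of letters and does not show that a factor binds there.

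Of the helicase ring, Mcm6 changed most. The Mcm6 probe (NM_008567) read 0.72, 1.13 and 1.06 at 0 h, and 1.31, 0.61 and 0.82 at 1.5 h. It read -0.94, -0.80 and -0.70 at 12 h, and 0.31, 0.71 and 0.47 at 24 h, of which 0.71 is replicate 2. The 12 h arrays lay below every other array, and the 24 h arrays lay below the 0 h arrays too, the highest of them narrowly. Mcm6 fell 3.44-fold from 0 h to 12 h, a log2 fold change of -1.78 ± 0.26 (adjusted p = 0.00146). From 12 h to 24 h it rose 2.48-fold, by a log2 value of 1.31 ± 0.26 (adjusted p = 0.0157), and without 24 h replicate 2 by 1.20 ± 0.24 (adjusted p = 0.0108). Its log2 fold change at 24 h against 0 h was -0.47 ± 0.26 (adjusted p = 0.328) with, and -0.58 ± 0.24 (adjusted p = 0.122) without, 24 h replicate 2. With slide as a fixed block the 12 h change was -1.24 (adjusted p = 0.0599), and without 12 h replicate 1 the later rise was 1.25 (adjusted p = 0.0795).

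Mcm3, another ring subunit, was the weaker of the called pair. The Mcm3 probe (NM_008563) read -0.22, 0.19 and -0.02 at 0 h, 0.33, -0.55 and -0.31 at 1.5 h, -1.18, -1.47 and -0.60 at 12 h, and -0.97, -0.45 and -1.08 at 24 h. Every 12 h and every 24 h array lay below every 0 h array, and 12 h and 24 h overlapped. Mcm3 fell 2.09-fold from 0 h to 12 h, a log2 fold change of -1.07 ± 0.32 (adjusted p = 0.0484). The call sits at the threshold and was lost on leaving out 9 of the 12 arrays singly, all but 1.5 h replicate 1, 12 h replicate 3 and 24 h replicate 2, with adjusted p-values from 0.012 to 0.161 over the 12. With slide as a fixed block its change was -0.55 (adjusted p = 0.355), and at 24 h against 0 h it was -0.81 ± 0.32 (adjusted p = 0.179) with, and -1.0 ± 0.31 (adjusted p = 0.0509) without, 24 h replicate 2.

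The other measured ring subunits did not pass the test. Mcm2 (NM_008564) read -1.18, -0.47 and -0.92 at 0 h, -0.29, -0.72 and -0.59 at 1.5 h, -1.43, -1.13 and -1.41 at 12 h, and -0.87, -2.56 and -0.48 at 24 h. Its 12 h and 0 h arrays overlapped, its lowest value was 24 h replicate 2, and its log2 fold change at 12 h was -0.46 ± 0.46 (adjusted p = 0.473). Mcm4 (NM_008565) read -2.81, -2.29 and -2.25 at 0 h, -2.19, -2.46 and -2.37 at 1.5 h, -1.44, -2.20 and -1.95 at 12 h, and -2.09, -1.64 and -1.97 at 24 h. Mcm4 differed from Mcm3 and Mcm6 in sign, since all of its 12 h and 24 h arrays lay above all of its 0 h arrays, with a log2 fold change at 12 h of 0.59 ± 0.28 (adjusted p = 0.167).

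Mcm7 (NM_008568) read 1.99, 1.82 and 1.61 at 0 h, 1.75, 1.58 and 1.54 at 1.5 h, 1.35, 1.36 and 1.42 at 12 h, and 1.61, 3.26 and 1.87 at 24 h. Its 12 h arrays were tightly grouped and lay below every other array, while 24 h replicate 2 at 3.26 lay above every other array. The log2 fold change was -0.43 ± 0.37 at 12 h against 0 h (adjusted p = 0.415). At 24 h against 12 h it was 0.87 ± 0.37 (adjusted p = 0.11) with, and 0.36 ± 0.19 (adjusted p = 0.187) without, 24 h replicate 2. Mcm5 (NM_008566) read between -6.45 and -6.09 at 0 h, and -5.32, -6.15 and -5.31 at 1.5 h. At 12 h it read -5.78, -6.97 and -5.56, and at 24 h -4.77, -7.00 and -4.87. The 2 arrays that called it well above background were 1 at 1.5 h and 1 at 12 h, so a level of the sixth ring subunit cannot be followed over the time course.

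Of the loading factors, Cdt1 was called in the same comparisons and directions as Mcm6. Cdt1 brings the ring to the origin and is the target of geminin. Its probe (NM_026014) read 0.05, -0.32 and 0.42 at 0 h, -0.27, -0.24 and -0.26 at 1.5 h, -1.43, -0.73 and -1.12 at 12 h, and -0.29, 0.39 and 0.10 at 24 h. The 12 h arrays lay below all others, and the 24 h arrays lay within the range of the 0 h arrays. Cdt1 fell 2.21-fold from 0 h to 12 h, a log2 fold change of -1.14 ± 0.29 (adjusted p = 0.0239). From 12 h to 24 h it rose 2.24-fold, by a log2 value of 1.16 ± 0.29 (adjusted p = 0.033), and without 24 h replicate 2 by 1.00 ± 0.27 (adjusted p = 0.0352).

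The Cdt1 calls depended on single arrays. The call at 12 h was lost without 0 h replicate 1 (adjusted p = 0.0812), 0 h replicate 3 (0.103), 12 h replicate 1 (0.101) or 12 h replicate 3 (0.0629). That at 24 h against 12 h was lost without 0 h replicate 1 (adjusted p = 0.0563), 1.5 h replicate 2 (0.0529), 1.5 h replicate 3 (0.0547), 12 h replicate 1 (0.138) or 12 h replicate 3 (0.0555). With slide as a fixed block the changes were of about the same size, -1.14 (adjusted p = 0.221) and 1.03 (adjusted p = 0.13). Both probes of Cdc6 (NM_001025779 and NM_011799), the ATPase that recruits the ring together with Cdt1, were not well above background on any array, so no change was tested.

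Of the activation factors, Mcm10 had the largest log2 fold changes of the 9 tested member probes at 12 h and 24 h, and Cdc45 did not pass the test. Mcm10 (NM_027290), which binds the ring and single-stranded DNA as origins fire, read 4.64, 4.23 and 4.42 at 0 h and 4.18, 4.47 and 3.87 at 1.5 h. At 12 h it read 0.19, 0.83 and 0.23, and at 24 h 3.66, 1.60 and 2.85, of which 1.60 is replicate 2. The groups at 0 h and 1.5 h overlapped, every 12 h array lay far below them, and the 24 h arrays lay between and apart from both. Mcm10 fell 16.2-fold from 0 h to 12 h, a log2 fold change of -4.02 ± 0.45 (adjusted p = 0.00036), which ranked at 191 by p among all probes tested. Its mean level at 0 h, 4.43, was far above the 75th percentile of the array, and the probe sequence was not used here, so which transcript the probe hybridises to was not tested. With slide as a fixed block the change was -3.91 (adjusted p = 0.0131).

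From 12 h to 24 h Mcm10 rose 4.89-fold, by a log2 value of 2.29 ± 0.45 (adjusted p = 0.0155), and without 24 h replicate 2 by 2.84 ± 0.31 (adjusted p = 0.00112). Without 12 h replicate 1 this rise was 2.18 (adjusted p = 0.0783). At 24 h against 0 h it was lower by 3.31-fold, with a log2 fold change of -1.73 ± 0.45 (adjusted p = 0.0494), and without 24 h replicate 2 of -1.18 ± 0.31 (adjusted p = 0.0275). That call was lost on leaving out 10 of the 12 arrays singly, all but 24 h replicates 1 and 2, with adjusted p-values from 0.0148 to 0.182 over the 12. It was lost too with slide as a fixed block, where the change was -0.88 (adjusted p = 0.698).

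Cdc45, the helicase cofactor that joins the ring when an origin fires, was read by 2 probes of 1 gene. The probe for NM_001161623 read -0.75, -0.78 and -0.76 at 0 h, -0.47, -0.30 and -0.38 at 1.5 h, -0.27, -0.32 and -0.47 at 12 h, and -0.95, -1.10 and -0.40 at 24 h. The probe for NM_009862 read -0.63, -0.58 and -0.64 at 0 h, -0.23, -0.34 and -0.28 at 1.5 h, -0.36, -0.34 and -0.24 at 12 h, and -0.94, -1.10 and -0.42 at 24 h. Both probes were above their 0 h values on every 1.5 h and 12 h array, by little, and 24 h replicate 3 stood above the other 24 h arrays. At 12 h against 0 h the log2 fold changes were 0.41 ± 0.24 (adjusted p = 0.245) and 0.30 ± 0.23 (adjusted p = 0.363), and the latter was -0.05 when arrays were scaled to the median instead of the 75th percentile. The values at 24 h against 12 h were -0.46 ± 0.24 (adjusted p = 0.159) and -0.51 ± 0.23 (adjusted p = 0.127), and 0.13 and 0.09 under median scaling. Without 24 h replicate 2 they were -0.32 ± 0.20 (adjusted p = 0.261) and -0.37 ± 0.19 (adjusted p = 0.19), and without 24 h replicate 3 they were -0.67 (adjusted p = 0.0468) and -0.70 (adjusted p = 0.0403).

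In all, 4 of the 9 member probes tested were called lower at 12 h than at 0 h, against 8.26% of the 31168 probes, and 0 were called higher, against 7.06%. Leaving out 24 h replicate 2, the members' counts were again 4 and 0, while 16.6% of all probes were called lower and 32.6% higher. Leaving out 0 h replicate 1, 0 h replicate 3 or 12 h replicate 1 reduced the 4 to 2. Calls over all probes, in either direction, then went from 4775 to 2246, 2495 and 2387. At 24 h against 12 h 3 member probes were called higher, against 6.26% of all probes, and 0 lower, against 6.78%. Without 24 h replicate 2 it was 3 as well, against 8.37%. That count was 0 without 12 h replicate 1, and without 24 h replicate 3 it was 3 higher and 2 lower. Over all probes those fits called 384 and 10795 in either direction, against 4063 with all arrays. The member count was 0 too with normexp background correction (191 of all probes) and when 12 h and 24 h were fitted alone (0 of all probes). Normexp left 1 member call at 12 h against 0 h (Mcm10), and 673 over all probes. At 24 h against 0 h 1 member probe was called lower, against 2.62% of all probes (2.84% were called higher), and without 24 h replicate 2 also 1, against 6.67%. At 1.5 h against 0 h limma called 0 members in either direction, against 0.0225% of all probes called higher and 0 lower. An unadjusted p under 0.05 was reached by 0 member probes and by 2001 of the 31168 probes. The 1.5 h log2 fold changes of the members ran from -0.31 to 0.38 with a smallest adjusted p of 0.782. An F test over the time course called 3 of the 9 (16.2% of all probes), Mcm10, Mcm6 and Cdt1, and 4 without 24 h replicate 2, with Mcm3 added (adjusted p = 0.0228), against 44.3% of all probes.

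The median log2 fold change of the 9 member probes was -0.46 between 0 h and 12 h, -0.20 between 0 h and 24 h, and 0.25 between 12 h and 24 h. The values that involve 24 h were -0.07 and 0.36 without 24 h replicate 2. Over all probes the medians were 0.42, -0.15 and -0.49 (0.13 and -0.22 for the last pair without that array), and over the 19894 coding probes 0.24, -0.06 and -0.14. Scaling to the array median set the medians over all probes at 0.07, 0.08 and 0.10. The log2 fold change at 12 h was then -1.42 for Mcm3 (adjusted p = 0.0707, not called) and -1.5 for Cdt1 (adjusted p = 0.0346). Quantile normalization gave -1.19 and -1.25. The falls were smaller with scaling to coding probes, -0.92 (adjusted p = 0.0545) and -0.99 (adjusted p = 0.0374). With normexp background correction they were -0.67 (adjusted p = 0.515) and -0.63 (adjusted p = 0.601). All 3 of the 12 h arrays lay below all 0 h arrays for 5 of the 9 probes, against 20.8% of all probes, and above them for 3, against 40.6%. At 1.5 h the 2 Cdc45 probes lay above 0 h without overlap, as did 16.3% of all probes. The 8 called values of members kept their sign under each of the 14 other settings that were run on all arrays. Over those settings the adjusted p at 12 h ran from 2.7e-06 to 0.0131 for Mcm10, from 3.22e-05 to 0.0989 for Mcm6, from 0.0019 to 0.601 for Cdt1 and from 0.00163 to 0.515 for Mcm3. At 24 h against 12 h it ran from 0.000278 to 0.196 for Mcm10, from 0.00241 to 0.196 for Mcm6 and from 0.00759 to 0.204 for Cdt1, and for Mcm10 at 24 h against 0 h from 0.0138 to 0.698.

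**Figure D2:**
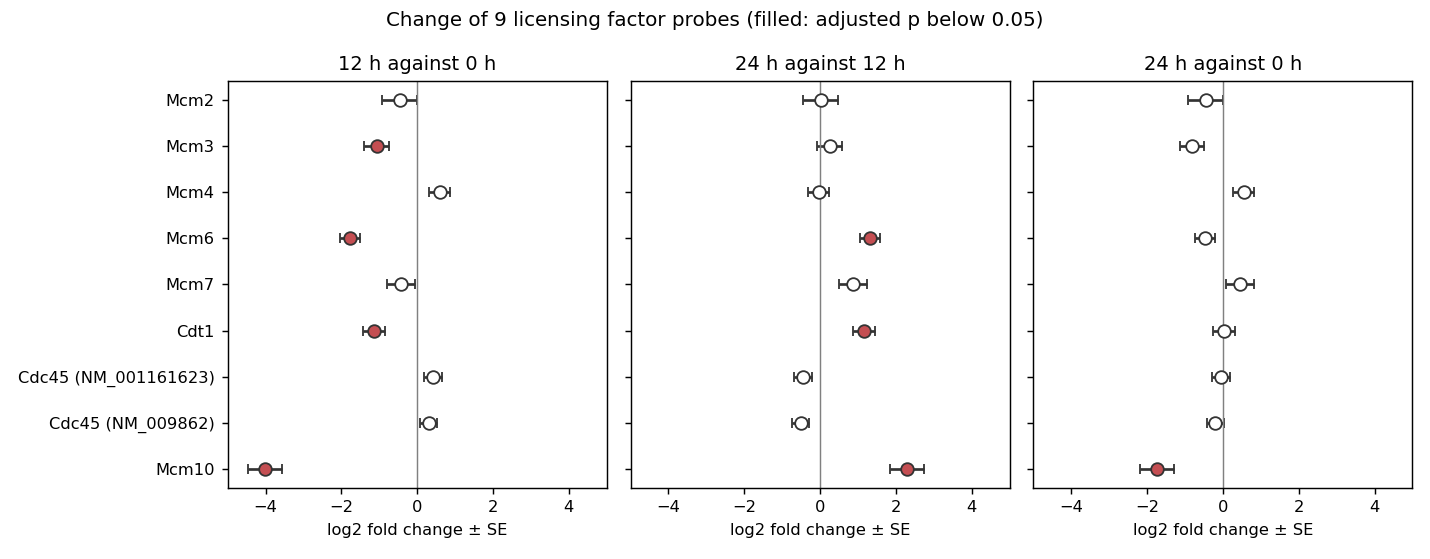
Log2 fold change (points) and its standard error (bars) of the 9 tested licensing factor probes in 3 comparisons, with filled points where the adjusted p was below 0.05. Mcm10 lies at -4.02, 2.29 and -1.73, and only Mcm10, Mcm6, Cdt1 and Mcm3 have filled points.

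Values within a slide cannot reflect a difference between slides. On slide 2, which held 2 arrays each of 1.5 h and 12 h, 12 h minus 1.5 h was -3.66 for Mcm10, -1.59 for Mcm6, -0.90 for Mcm3 and -0.83 for Cdt1 on the log2 scale. On the same slide it was 0.60 for Mcm4, and 0.05 and -0.04 for the Cdc45 probes. On slide 3, with 2 arrays of 24 h and 1 of 12 h, 24 h minus 12 h was 3.03 for Mcm10, 1.09 for Mcm6 and 1.03 for Cdt1, and -0.42 for Mcm3. So the 12 h arrays were lower than the 1.5 h arrays of their own slide for all 4 called members, and lower than the 24 h arrays of their own slide for all but Mcm3. These differences carry no test of their own.

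**Figure D3:**
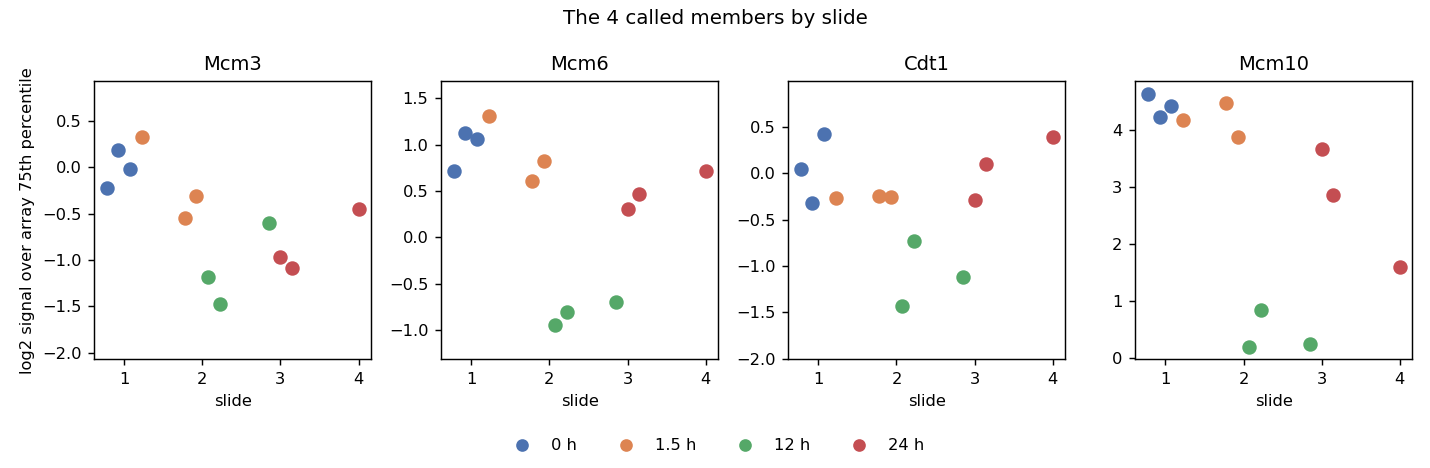
Level of the 4 members called at 12 h (log2 processed signal over the 75th percentile of the array) by slide, with a point per array coloured by time point. On slide 2 the 12 h arrays of Mcm10 read 0.19 and 0.83 and the 1.5 h arrays 4.47 and 3.87, and 24 h replicate 2 is the single array of slide 4.

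The proteins around the licensing factors were read from lists of pathway genes. Their counts, and those of the marker lists below, stand beside the shares over all 31168 probes. At 12 h against 0 h these shares were 8.26% called lower and 7.06% higher, and 16.6% and 32.6% without 24 h replicate 2. At 24 h against 12 h they were 6.26% higher and 6.78% lower, and 8.37% and 7.4% without that array. No list was tested against these shares. Geminin, the inhibitor of Cdt1, was also lowest at 12 h. Gmnn read 0.98, 1.08 and 1.23 at 0 h, 1.12, 0.97 and 1.07 at 1.5 h, -0.98, -0.68 and -0.44 at 12 h, and 0.49, 0.51 and 1.21 at 24 h. All 12 h arrays lay below all others. It fell 3.48-fold at 12 h (log2 fold change -1.80 ± 0.26, adjusted p = 0.0016) and rose by 1.44 ± 0.26 from 12 h to 24 h (adjusted p = 0.0124; without 24 h replicate 2, 1.56 with an adjusted p of 0.00448). Mcmbp, which binds MCM subunits outside the assembled ring, read 1.57, 1.24 and 1.28 at 0 h and 0.65, 0.57 and 0.51 at 12 h, and fell by 0.78 ± 0.24 (adjusted p = 0.0498). Of the 7 genes of licensing restraint and turnover these 2 fell at 12 h and 5 did not pass the test (Dtl, Skp2, Cul4a, Ddb1 and Fzr1), with a list median of -0.54. Cul4a and Ddb1 were called lower as well without 24 h replicate 2, which made 4 of 7.

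Among 11 measured genes of helicase activation and origin firing, 2 fell at 12 h and 2 rose from 12 h to 24 h, and 9 did not pass in each. Without 24 h replicate 2, 4 genes were lower at 12 h (Gins2 and Wdhd1 added) and 3 higher (Mtbp, Recql4 and Donson). Over all probes that fit called 16.6% lower and 32.6% higher. In the same fit 3 genes rose from 12 h to 24 h, against 8.37% of all probes. Gins4, a GINS subunit, read -0.48, -0.11 and -0.27 at 0 h and -1.09, -1.65 and -1.40 at 12 h, with a log2 fold change of -1.09 ± 0.25 (adjusted p = 0.0155). Topbp1, a scaffold for helicase assembly, fell by 0.85 ± 0.25 (adjusted p = 0.0399) and rose by 0.96 ± 0.25 from 12 h to 24 h (adjusted p = 0.035). Gins2, another GINS subunit, read -4.21, -4.03 and -4.45 at 12 h and -2.97, -2.78 and -3.02 at 24 h, and rose by 1.31 ± 0.30 (adjusted p = 0.0249). Without 24 h replicate 2 the rises of Topbp1 and Gins2 were 0.86 (adjusted p = 0.0296) and 1.24 (adjusted p = 0.0229). Gins4 and Topbp1 were named because they passed the test at 12 h against 0 h, and the median log2 fold change of the whole list there was -0.20.

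Of 7 origin recognition genes 1 was called higher at 12 h and 6 did not pass, with a list median of -0.01. Orc4 was called lower at 12 h without 24 h replicate 2. The call was 1 of the 2 probes of Orc2, NM_001025378, which read -4.38, -3.82 and -3.86 at 0 h and -2.05, -2.57 and -1.76 at 12 h and rose by 1.89 ± 0.31 (adjusted p = 0.0029). The other Orc2 probe, NM_008765, read between -3.73 and -3.54 at 0 h and between -3.69 and -3.63 at 12 h, so the 2 probes of that gene disagreed. Orc3 was called lower at 24 h than at 12 h by both of its probes, by -0.82 ± 0.24 (NM_015824, adjusted p = 0.0476) and -1.54 ± 0.45 (NM_001159563, adjusted p = 0.0473), and lower than at 0 h by the former, by -0.99 ± 0.24 (adjusted p = 0.0367). Without 24 h replicate 2 these were -0.66 (adjusted p = 0.0448), -0.97 (0.0464) and -0.83 (0.0183). Among 4 genes named after the MCM family, Mcm8, Mcm9 and Mcmdc2 and the Mcm3-associated protein Mcm3ap, Mcmdc2 was at least 1.58-fold higher at 12 h (adjusted p = 0.0466), against 0 h arrays that were all not well above background. The Mcmdc2 probe was well above background on 4 arrays only, 2 at 1.5 h and 2 at 12 h. Slide 2, on which detection was highest, holds 2 arrays of each of these time points. At 12 h the probe read -4.50 and -4.69 on slide 2 and -4.29 on slide 3. Whether its detection followed slide was not tested. It was thus kept for testing only through groups in which it read higher. Mcm8 and Mcm3ap did not pass and Mcm9 was too dim to test, but Mcm3ap was called lower at 12 h without 24 h replicate 2 (adjusted p = 0.0303).

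**Figure D4:**
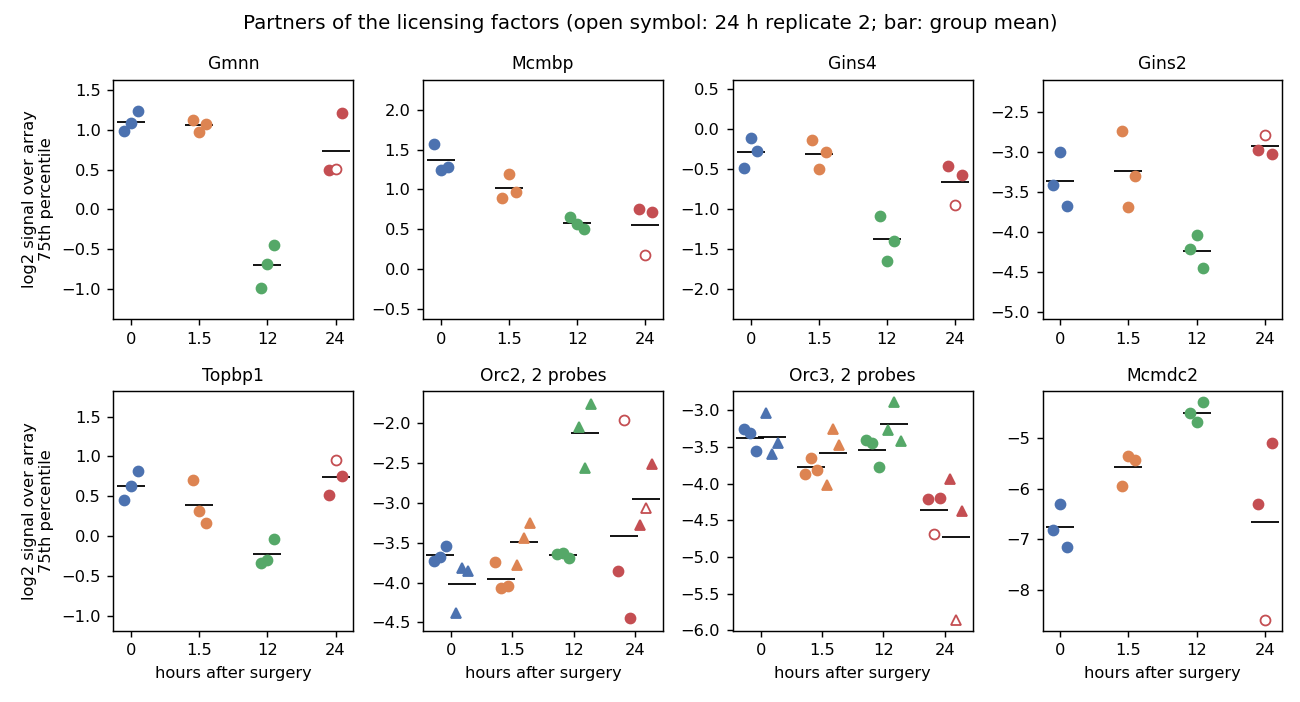
Level of 8 pathway genes on the 12 arrays (log2 processed signal over the 75th percentile of the array) against hours after surgery, with replicates as points, 24 h replicate 2 open, group means as bars, and circles and triangles for the 2 probes of Orc2 and of Orc3. Gmnn, Gins4, Gins2 and Topbp1 are lowest at 12 h, and 1 of the 2 Orc2 probes is highest there.

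Genes of S phase and of cycling cells were read beside the members. Of 12 S phase genes 3 fell at 12 h, namely Tk1 (thymidine kinase) by 3.40 ± 0.49 (adjusted p = 0.00151), E2f2 by 2.27 ± 0.33 (adjusted p = 0.0016) and Pola1 (polymerase alpha) by 1.80 ± 0.49 (adjusted p = 0.0312), and 0 rose. Without 24 h replicate 2, 5 genes were lower at 12 h (Prim1 and Rrm2 added) and 4 higher (E2f1, Rrm1, Ccne2 and Tyms). Over all probes that fit called 16.6% lower and 32.6% higher. Tk1 read 1.89, 2.52 and 2.29 at 0 h, -0.76, -1.46 and -1.27 at 12 h, and 0.76, -1.60 and -0.34 at 24 h, and was still called lower at 24 h than at 0 h (log2 fold change -2.62 ± 0.49, adjusted p = 0.0139; without 24 h replicate 2, -2.02 and 0.00577). From 12 h to 24 h E2f2 rose by 1.89 ± 0.33 (adjusted p = 0.0107), while Rrm1 and Tyms, both of nucleotide synthesis, fell by 1.24 ± 0.31 (adjusted p = 0.0324) and 1.07 ± 0.25 (adjusted p = 0.0279). These were, without 24 h replicate 2, 2.05 (adjusted p = 0.00496) for E2f2, -0.91 (0.0236) for Rrm1 and -0.83 (0.0137) for Tyms. Pcna, the sliding clamp, had a log2 fold change of 0.46 ± 0.25 at 12 h (adjusted p = 0.215) and 0.28 ± 0.25 at 24 h (adjusted p = 0.548; without 24 h replicate 2, 0.35 and 0.316).

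Of 6 cycling cell markers 1 rose and 1 fell at 12 h, and without 24 h replicate 2 it was 3 higher (Ccnb1 and Cdk1 added) and 1 lower. Over all probes that fit called 32.6% higher and 16.6% lower. Cdk1 was not well above background on any 0 h array, so it was kept for testing only through groups in which it read higher. Aurkb rose by 1.07 ± 0.27 (adjusted p = 0.0242), and both probes of Birc5 fell, by 2.00 ± 0.41 (adjusted p = 0.00865) and 1.36 ± 0.36 (adjusted p = 0.0277). Mki67 had log2 fold changes of -0.32 ± 0.45 at 12 h (adjusted p = 0.608) and -0.84 ± 0.45 at 24 h (adjusted p = 0.315). The latter was, without 24 h replicate 2, its lowest array at 24 h, -0.28 ± 0.29 (adjusted p = 0.552). The summed linear level of these markers, as a multiple of the 75th percentile of the array, was 1.29 to 1.71 at 0 h, 1.67 to 2.18 at 12 h and 1.15, 0.699 and 1.17 at 24 h, of which 0.699 is replicate 2.

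Markers of other liver cell types moved at the same times. The summed level of 6 stellate cell markers was 7.92 to 9.61 at 0 h, 4.24 to 4.94 at 12 h and 7.26, 11.3 and 5.76 at 24 h, of which 11.3 is replicate 2 and the others lie below every 0 h array. Of the 6 genes 1 was called at 12 h, Lrat, which fell by 1.90 ± 0.47 (adjusted p = 0.0209) and rose by 2.23 ± 0.47 from 12 h to 24 h (adjusted p = 0.0193; without 24 h replicate 2, 1.96 and 0.0241). Without that array 3 stellate markers were called lower at 12 h and 1 higher. The sum for 5 erythroid markers was 11.5 to 12.6 at 0 h, 6.82 to 11.2 at 12 h and 10.3, 11.2 and 5.99 at 24 h (11.2 in replicate 2), with Epor alone called at 12 h (log2 fold change -2.62 ± 0.41, adjusted p = 0.00213). The 8 neutrophil markers summed to 1.71 to 2.31 at 0 h and 32.6 to 41.8 at 12 h, with 5 of 7 tested genes higher, and 6 without 24 h replicate 2. Of the tested genes Ngp was not well above background on any 0 h array. It was thus kept for testing only through groups in which it read higher.

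Of the other lists, 2 of 6 tested lymphocyte markers fell at 12 h (Ms4a1 and Cd79b), with sums of 6.74 to 7.76 at 0 h and 7.63 to 14.0 at 12 h. Ms4a1 was well above background on 2 arrays at 0 h, 1 at 1.5 h, 0 at 12 h and 2 at 24 h. It was thus kept for testing only through groups in which it read higher than at 12 h. Among 8 macrophage markers 2 fell (Vsig4 and Csf1r) and Marco rose, with sums of 32.4 to 53.9 and 30.7 to 49.8. Among 6 endothelial markers Kdr fell and Lyve1 rose, with sums of 27.4 to 29.5 and 26.4 to 29.4. Among 5 tested bile duct markers Sox9 rose, with sums of 13.4 to 15.4 and 11.4 to 13.7, and among 8 hepatocyte markers Ttr fell and Fgb rose, with sums of 1090 to 1190 and 1470 to 2570. The calls at 12 h without 24 h replicate 2 were 2 lower and 1 higher for lymphocytes, 4 and 1 for macrophages, 1 and 2 for endothelium, 0 and 1 for bile duct and 1 and 2 for hepatocytes. Over all probes that fit called 16.6% lower and 32.6% higher. Cd79a and Cftr were not well above background on any array. The part of any of these cell types in the course of the licensing factors was not tested.

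Across the 12 arrays, which share the time points, slides and scaling, Mcm10 correlated with Mcm6 at r = 0.87, with Cdt1 and with Mcm3 at 0.66, and with Mcm4 at -0.75. Without 24 h replicate 2 these were 0.94, 0.85, 0.69 and -0.74. The value for Mcm10 and Mcm7 was 0.06 with that array and 0.72 without it, so for that pair a single array set the correlation. Among 16558 named coding genes, the 5 most like Mcm10 in profile were Cebpe (r = 0.988), Rilp (0.987), Sytl1 (0.982), Septin4 (0.982) and Snx14 (0.981). Cebpe read 1.87, 1.48 and 1.52 at 0 h, -2.36, -1.45 and -1.61 at 12 h, and 0.89, -0.83 and -0.13 at 24 h, with replicate 2 the lowest at 24 h as for Mcm10. The 5 most like the mean standardised profile of the 5 measured ring subunits were Rab10 (r = 0.936), Esrrg (0.932), Mapk9 (0.927), Colec12 (0.923) and Vcpkmt (0.914). Mcm10 itself correlated with that mean at 0.602, Cdt1 at 0.629 and Cdc45 at -0.262. These are descriptions over 12 arrays and carry no test.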

How the data were processed

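The deposited scanner files hold, for each spot, a linear processed intensity that Agilent Feature Extraction 10.5.1.1 made by subtracting background and detrending, per the file headers, and quality marks. A table of log2 values from the authors, deposited beside these, has a normalization not given in the sources used here and served as an alternative. Of 39448 spots 37831 were not controls. Outlier spots were dropped, spots of a probe averaged, and log2 intensity minus the 75th percentile of the array was taken. Probes well above background on at least 3 of 12 arrays were kept (31168). limma 3.58.1 (R 4.3.3; lmFit, eBayes) fitted a mean per time point to all 12 arrays, with two-sided contrasts and an F test, Benjamini-Hochberg over all kept probes and a threshold of 0.05, and was tested on simulated data. The spread of 24 h replicate 2 enters every contrast. A group not well above background gives a bound against the dimmest detected signal of each array. Gene names came from RefSeq by accession (21963 of 22522 coding probes). The number of arrays limits precision. Replicate numbers were not taken to pair the samples in the main fit. The deviations of 2 of 18 same-numbered pairs from their group means correlated above 0.1 (range -0.423 to 0.413). Slide can enter such deviations, so this check cannot exclude a pairing.

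All members were named. From each pathway list up to 4 genes per contrast past the threshold were to be named, smallest adjusted p first (or the gene with the smallest p where none passed), with the 5 coding genes most correlated with the ring mean and with Mcm10. Marker genes, Pcna and Mki67 were named outside that rule, after their values were seen. The members and lists were chosen with earlier results of these data known. Alternatives were quantile, median and coding-probe scaling, the authors' log2 values, no filter, a filter on all 12 arrays, the brightest probe per gene, robust moderation with a trend, array weights, a block for replicate number, a fixed or random block for slide, normexp background correction (offset 50), the compared groups alone, and each array left out.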

Additional observations from a re-analysis of the deposited data

How the results depend on the processing

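The 8 called member values kept their sign under the 14 alternatives run on all 12 arrays. Of the 28 values not called, 15 changed sign in at least 1 of these alternatives and 6 were called in at least 1. Mcm10 at 12 h against 0 h was called in all 14 and on leaving out each of the 12 arrays. Counts of called members (4 at 12 h, 1 at 24 h, 3 at 24 h against 12 h, 0 at 1.5 h and 3 by the F test) moved as follows. With array weights, which gave 24 h replicate 2 a weight of 0.04, they were 7, 3, 3, 1 and 7. Shares over all probes by the F test were taken only in the main fit (16.2%) and without 24 h replicate 2 (44.3%). Member counts by the F test under the other settings therefore have no share to be read against. Of the 7 at 12 h 5 were lower and 2 higher (Mcm4, 0.68 with an adjusted p of 0.023, and Cdc45 NM_001161623, 0.44 with 0.0411), and the 1 at 1.5 h was higher. Over all 31168 probes the weights called 18225 at 12 h and 8761 at 24 h, against 4775 and 1701 in the main fit. They called 10604 at 24 h against 12 h (4063 in the main fit) and 11863 at 1.5 h (7 in the main fit). With normexp background correction the member counts were 1, 0, 0, 0 and 1. Over all probes normexp called 673 at 12 h, 189 at 24 h, 191 at 24 h against 12 h and 2 at 1.5 h. Slide as a fixed block gave 1 member at 12 h and 0 at 24 h, and slide as a random block (correlation 0.853) gave 2 and 0. Over all probes the fixed block called 1294 and 83, and the random block 2640 and 290. The member count at 24 h against 0 h was also 0 with coding-probe scaling, no filter, the brightest probe per gene, the compared groups alone and the replicate block. Over all probes those settings called 1605, 1307, 1515, 121 and 1158 there, in that order. The compared groups alone gave 0 members at 24 h against 12 h, and 0 over all probes. The replicate block gave 3 members at 12 h, 2 at 24 h against 12 h and 2 by the F test. Over all probes it called 3603 at 12 h and 1261 at 24 h against 12 h. On leaving out each array the member counts ranged from 2 to 4 at 12 h, from 0 to 1 at 24 h, from 0 to 5 at 24 h against 12 h, from 0 to 0 at 1.5 h and from 2 to 4 by the F test. Counts over all probes then ranged from 2246 to 15342 at 12 h and from 415 to 5288 at 24 h. They ranged from 384 to 10795 at 24 h against 12 h and from 0 to 185 at 1.5 h. Median scaling reversed the log2 fold changes of Cdc45, to -0.05 (NM_009862) at 12 h against 0 h, and to 0.13 (NM_001161623) and 0.09 (NM_009862) at 24 h against 12 h. The cause of these shifts was not tested, except that fitting the compared groups alone uses fewer samples. The Mcm5 probe and both Cdc6 probes were too dim to follow.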
